A study of Homo sapiens with 4 samples.

Results

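The 10 genes described here encode surface proteins by which plasma cells and myeloma cells are recognised, sorted or treated: SDC1, TNFRSF17, TNFRSF13B, SLAMF7, CD38, GPRC5D, FCRL5, CD27, CD79A and CD79B. They were taken by symbol, whatever their values, from the 60682 genes of the count table, and each had 1 entry there. Transcripts were measured by RNA-seq of total RNA from JJN3, an established human multiple myeloma line, that had been transduced with a short hairpin RNA against the kinase WNK1 (shWNK1, 2 libraries) or with the NS short hairpin RNA (NS, 2 libraries), against which shWNK1 is set here. All 4 libraries carry a hairpin, and the labels give neither the hairpin sequence, nor the time after transduction, nor whether the replicates are separate cultures, so the p-values below reflect no more than how far the 4 libraries scatter, and that scatter may be technical. The data are transcript levels of a bulk culture: fewer cells with a transcript and less of it per cell cannot be told apart, and surface protein was not measured.

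Plasma cells are the antibody-secreting end stage of B-cell differentiation. On the way there, B cells lose most of the B-cell receptor, to which CD79A and CD79B contribute the signalling chains, and gain SDC1 (syndecan-1, also called CD138), a heparan sulfate proteoglycan that is the usual marker of plasma cells, and TNFRSF17 (BCMA), a receptor for the survival factors APRIL and BAFF. CD38, an ectoenzyme that consumes NAD, SLAMF7, a receptor of the SLAM family, TNFRSF17, the orphan receptor GPRC5D and the Fc receptor-like protein FCRL5 are targets of antibodies or engineered T cells in myeloma, so their levels on the malignant cell matter for treatment.

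The shWNK1 libraries held 16973521 and 20164122 counts in all, and the NS libraries 17491537 and 17392619. WNK1 itself was counted 325 and 403 times in shWNK1 libraries and 4911 and 4148 times in NS libraries, the direction the labels call for. Plasma cell regulators were abundant: the transcription factor IRF4 averaged 742 CPM (counts scaled to library size, with TMM factors) in shWNK1 cells and 872 CPM in NS cells, and PRDM1 averaged 316 CPM in shWNK1 cells and 266 CPM in NS cells. Of 10 mature B-cell markers, MS4A1, CD22, EBF1, FCER2 and CD1C had 0 counts in all 4 libraries, while 4 were expressed: CIITA averaged 61.1 CPM in shWNK1 cells and 21.9 CPM in NS cells, BACH2 35.5 CPM in shWNK1 cells and 42.1 CPM in NS cells, TCL1A 9.76 CPM in shWNK1 cells and 5.80 CPM in NS cells, and PAX5 2.99 CPM in shWNK1 cells and 7.27 CPM in NS cells. The 10 T and NK cell markers summed to 0.975 and 0.341 CPM in shWNK1 libraries and 0.586 and 1.42 CPM in NS libraries.

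Of the 10 antigens, 7 were expressed enough to be tested. SLAMF7 rose, SDC1, CD38 and CD79B fell, and TNFRSF17, GPRC5D and TNFRSF13B did not pass the test. FCRL5, CD27 and CD79A were at or near 0 counts. The 1 rise and 3 falls stand beside a background in which 18.5% of 14864 tested genes rose and 20.2% fell (edgeR's quasi-likelihood F-test at an adjusted p under 0.05, by Benjamini and Hochberg), so the number of called antigens is no result about the group. The shWNK1 libraries lay wholly on one side of the NS libraries for 5 of the 7 tested antigens, where 68.4% of all tested genes did. The median log2 fold change of the 7 was -0.32, beside 0.01 over all tested genes. That median is the value of TNFRSF13B, which was not called (edgeR adjusted p = 0.545) and turned to 0.30 without NS replicate 2. The falls numbered 1 when shWNK1 replicate 1 was left out and 2 when shWNK1 replicate 2 or NS replicate 2 was; the rises numbered 2 when NS replicate 1 was.

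**Figure D1:**
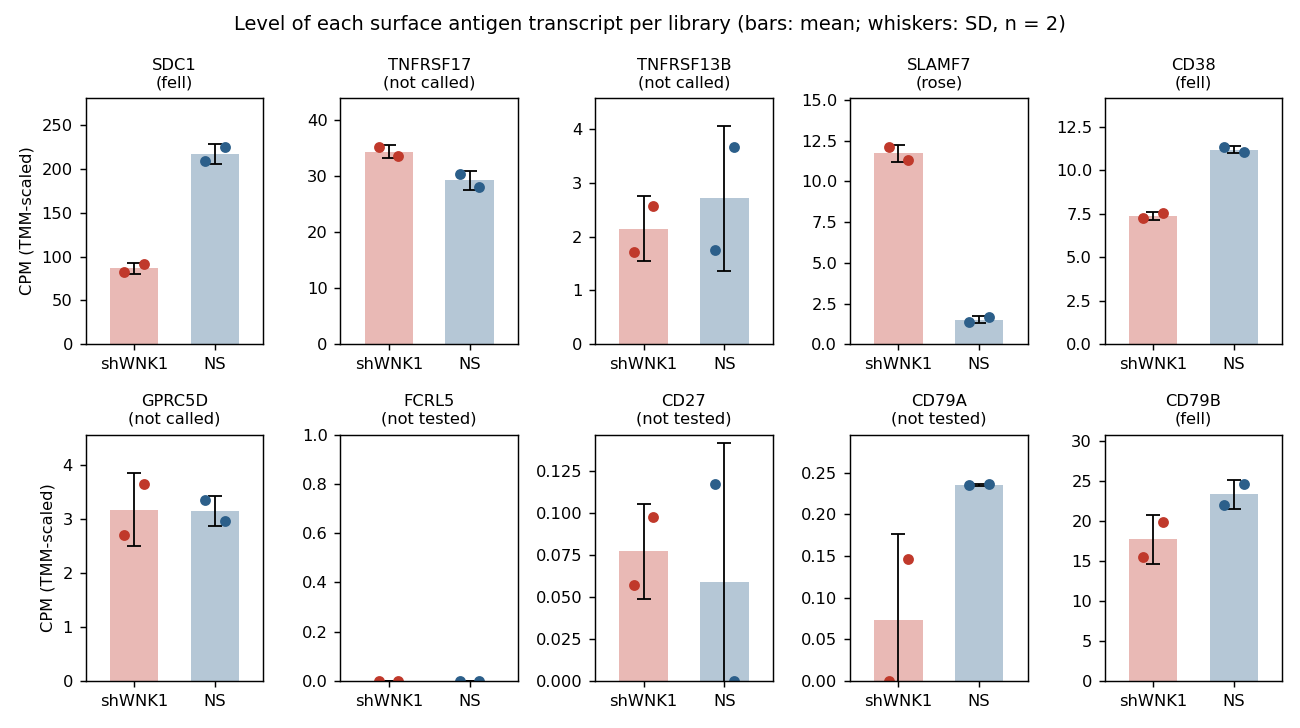
Level of each of the 10 surface antigen transcripts in CPM with TMM-scaled library sizes, on an axis of its own for each gene that starts at 0. Points are libraries, bars are group means and whiskers are SD (n = 2); the SLAMF7 points of shWNK1 cells lie at 11.3 and 12.1 CPM, far above those of NS cells, the SDC1 points lie far below, and FCRL5 is at 0 in all libraries.

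The plot of CPM by library shows the points behind these counts. The plasma cell marker SDC1 (ENSG00000115884.11, chromosome 2, 20200797 to 20225433, minus strand, hg38) stood at 82.0 and 91.4 CPM in shWNK1 libraries, against 209 and 225 CPM in NS libraries. The groups were far apart beside the gap between replicates. SDC1 averaged 86.7 ± 6.63 CPM in shWNK1 cells and 217 ± 11.5 CPM in NS cells (SD, n = 2 each). The level was lower in shWNK1 cells by 2.50-fold (log2 fold change -1.32, with SE 0.069, 95% interval -1.46 to -1.18, edgeR adjusted p = 3.28e-16). This log2 fold change ranks 272 from the lowest among all tested genes. SDC1 was called in every alternative run, including the test against a fold change of 1.5 (adjusted p = 7.47e-11).

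SLAMF7 (ENSG00000026751.17, chromosome 1, 160739057 to 160754821, plus strand), the target of the antibody elotuzumab, was counted 211 and 233 times in shWNK1 libraries and 23 and 28 times in NS libraries. In CPM these were 12.1 and 11.3 in shWNK1 libraries, against 1.35 and 1.66 in NS libraries, so that each shWNK1 library was well above both NS libraries. Its level was 7.77-fold higher in shWNK1 cells (log2 fold change 2.96, SE 0.245, 95% interval 2.46 to 3.46, edgeR adjusted p = 1.57e-11), and this log2 fold change ranks 30 from the highest. SLAMF7 was called in every alternative run, and its log2 fold change lay between 2.82 and 3.12 with 1 library left out. SLAMF7 thus moved the opposite way to SDC1.

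SLAMF7 is also made by NK cells and by some myeloid cells. The 10 myeloid markers summed to 12.6 and 15.1 CPM in shWNK1 libraries and 2.52 and 3.13 CPM in NS libraries. In shWNK1 libraries almost all of this was S100A8 and S100A9, the calcium-binding proteins of neutrophils and monocytes. These rose by 2.25 and 2.90 on the log2 scale. In NS libraries S100A8 stood at 1.055 and 0.887 CPM and S100A9 at 0.586 and 1.77 CPM, a smaller part of the sum. CSF1R was counted 3 and 4 times in shWNK1 libraries, against 10 and 5 times in NS libraries. The defining myeloid genes LYZ, FCGR3A, CSF3R, MPO and ELANE had 0 counts in all 4 libraries, and CD14 was counted 3 and 5 times in shWNK1 libraries, against 4 and 3 times in NS libraries. Whether these markers have a part in the SLAMF7 rise was not tested.

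CD38 (ENSG00000004468.13, chromosome 4, 15778275 to 15853232, plus strand), the target of daratumumab, stood at 7.22 and 7.54 CPM in shWNK1 libraries and 11.3 and 11.1 CPM in NS libraries. The groups did not overlap. The CD38 level was lower in shWNK1 cells by 1.51-fold (log2 fold change -0.60, with SE 0.178, 95% interval -0.96 to -0.24, edgeR adjusted p = 0.00741). The estimate barely moved when a library was left out, but the call ended without shWNK1 replicate 1 (-0.56, edgeR adjusted p = 0.0829) and without shWNK1 replicate 2 (-0.64, edgeR adjusted p = 0.054).

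CD79B (ENSG00000007312.13, chromosome 17, 63928740 to 63932336, minus strand), one of the pair of B-cell receptor signalling chains, was at 15.5 and 19.9 CPM in shWNK1 libraries and 22.0 and 24.6 CPM in NS libraries. The higher shWNK1 value came close to the lower NS value. The CD79B level was lower in shWNK1 cells by 1.31-fold (log2 fold change -0.39, with SE 0.135, 95% interval -0.67 to -0.12, edgeR adjusted p = 0.0207), a call that rests on single libraries: it was lost without shWNK1 replicate 1 (-0.23, edgeR adjusted p = 0.372), without NS replicate 2 (-0.31, edgeR adjusted p = 0.0989) and with DESeq2 (adjusted p = 0.0705). A gene without a symbol on the same strand shares 288 of the 2062 exon bases of CD79B, and by the command in the file header fragments that lie over both were counted for neither, so the level of CD79B is uncertain to that extent.

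Its partner CD79A (ENSG00000105369.10) was counted 0 and 3 times in shWNK1 libraries and 4 and 4 times in NS libraries, too few to test. The CD79A and CD79B proteins pair with each other in the B-cell receptor, and in these cells only the CD79B transcript was well above the detection limit of 3 counts, with 270 and 408 counts in the libraries of shWNK1 cells and 375 and 416 in those of NS cells.

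TNFRSF17 (BCMA; ENSG00000048462.11, chromosome 16, 11965210 to 11968068, plus strand) was at 35.2 and 33.5 CPM in shWNK1 libraries and 30.4 and 28.0 CPM in NS libraries. The shWNK1 values were both above the NS values, by little. The log2 fold change was 0.23 (SE 0.107, 95% interval 0.01 to 0.45, unadjusted p = 0.0378, edgeR adjusted p = 0.0865), so it was not called, and the interval, which is not adjusted for the number of genes, ends at a 1.37-fold higher level in shWNK1 cells. It passed the threshold with upper-quartile scaling (0.27, edgeR adjusted p = 0.0431) and without NS replicate 1 (0.29, edgeR adjusted p = 0.0485).

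The related receptor TNFRSF13B (TACI; ENSG00000240505.9, chromosome 17, 16929816 to 16972118, minus strand), which binds the same ligands, had 30 and 53 counts in shWNK1 libraries and 30 and 62 counts in NS libraries. Replicates differed from each other as much as the groups did. The log2 fold change was -0.32 with a 95% interval from -1.11 to 0.46 (edgeR adjusted p = 0.545), and it turned to 0.30 without NS replicate 2, while without NS replicate 1 it was -0.76 (edgeR adjusted p = 0.132). A pseudogene on the same strand, TBC1D27P, shares 17.3% of its exon bases.

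GPRC5D (ENSG00000111291.8, chromosome 12, 12940775 to 12952147, minus strand), the target of talquetamab, had 47 and 75 counts in shWNK1 libraries and 57 and 50 in NS libraries. The groups overlapped. The log2 fold change was 0.02 with a 95% interval from -0.62 to 0.65 (edgeR adjusted p = 0.975), which leaves room for a change of up to about 1.57-fold, and its sign turned without shWNK1 replicate 2 (-0.23) or NS replicate 2 (-0.06).

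FCRL5 (ENSG00000143297.19), the target of cevostamab, had 0 counts in every library, which allows a level of up to 0.177 CPM in the shallowest library. CD27 (ENSG00000139193.3), a costimulatory receptor of memory B cells and normal plasma cells, was counted 1 and 2 times in shWNK1 and 2 and 0 times in NS libraries. Other genes share 39.1% of the exon bases of CD27, among them the opposite-strand CD27-AS1, and fragments over those 551 bases were counted for no gene where they lay over more than 1. Counting did not use strand, so the strand of the fragments counted for either gene is unknown. CD27-AS1 was counted 68 and 85 times in shWNK1 libraries, against 36 and 27 times in NS libraries, and was called as a rise (log2 fold change 1.11, edgeR adjusted p = 0.00741), a call that ended when shWNK1 replicate 2 was left out (edgeR adjusted p = 0.0751). The CD27 ligand CD70 had means of 49.9 CPM in shWNK1 cells, against 50.6 CPM in NS cells, and was not called (edgeR adjusted p = 0.901).

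**Figure D2:**
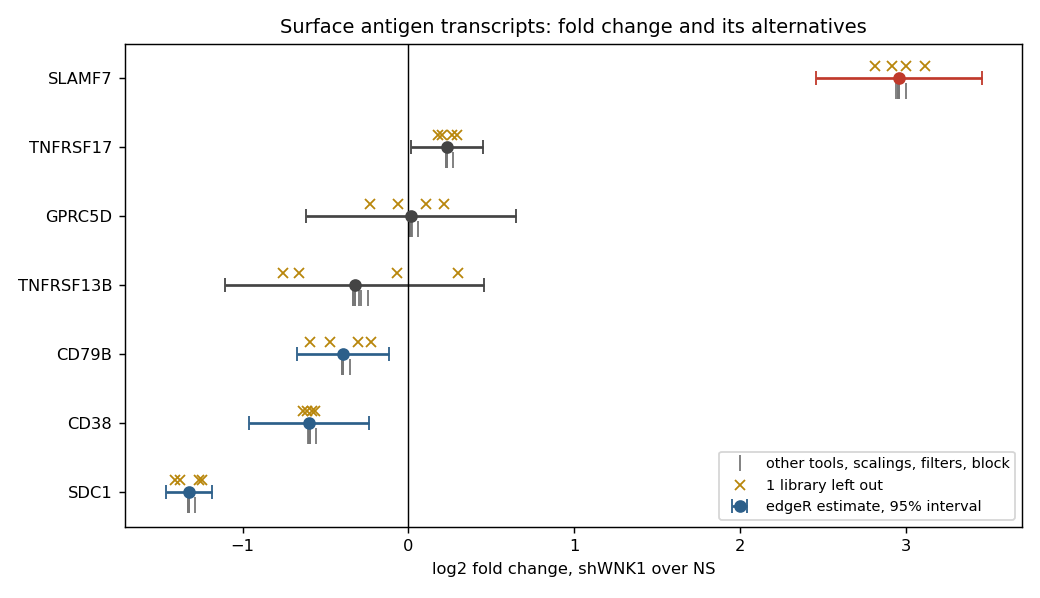
Log2 fold change, shWNK1 over NS, of the 7 tested surface antigens. Circles are edgeR estimates with 95% intervals (red rose, blue fell, grey not called), crosses leave out 1 library and ticks are the other tools, scalings, filters and the block; the SLAMF7 and SDC1 marks stay far from 0 on opposite sides, and the GPRC5D and TNFRSF13B crosses fall on both sides of 0.

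The plot of fold changes and their alternatives sets the 7 tested antigens side by side. Levels can be compared between genes only per length, so counts were divided by the gene length of the table and scaled to TPM, a length-corrected share of all transcripts. In shWNK1 cells the order by mean TPM was TNFRSF17 (119 ± 4.86), SDC1 (84.5 ± 5.85), CD79B (30.2 ± 5.06), GPRC5D (9.94 ± 2.04), SLAMF7 (8.54 ± 0.455), CD38 (3.79 ± 0.0876) and TNFRSF13B (2.13 ± 0.586; SD, n = 2 each). In NS cells it was SDC1 (204 ± 6.97), TNFRSF17 (97.9 ± 7.56), CD79B (38.3 ± 2.31), GPRC5D (9.52 ± 1.01), CD38 (5.54 ± 0.197), TNFRSF13B (2.58 ± 1.24) and SLAMF7 (1.05 ± 0.132). Among these, the libraries of neighbours in the order overlapped for GPRC5D and SLAMF7 in shWNK1 cells, and all other neighbours were apart. CD79A, CD27 and FCRL5 were last in both groups.

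SDC1 and TNFRSF17 therefore changed places in the order by TPM. In CPM, without the division by gene length, SDC1 stayed above TNFRSF17 in both groups. The means of SDC1 and TNFRSF17 were 86.7 and 34.3 CPM in shWNK1 cells and 217 and 29.2 CPM in NS cells. The ratio of their TPM values was 0.655 and 0.766 in shWNK1 libraries and 1.93 and 2.26 in NS libraries. SDC1 made up 31.8% and 33.5% of the summed TPM of the 10 antigens in shWNK1 libraries, against 55.5% and 57.9% in NS libraries, while TNFRSF17 made up 48.6% and 43.7% in shWNK1 libraries and 28.8% and 25.6% in NS libraries. The share of SLAMF7 was 3.51% and 3.11% in shWNK1 libraries and 0.268% and 0.318% in NS libraries. The sum itself was 253 and 265 TPM in shWNK1 libraries and 358.5 and 361 TPM in NS libraries, of which SDC1 held 80.4 and 88.7 TPM in shWNK1 libraries and 199 and 209 TPM in NS libraries. Among all tested genes, SDC1 stood at percentile 87.4 of mean TPM in shWNK1 cells and 95.4 in NS cells, and SLAMF7 at percentile 38.6 in shWNK1 cells and 10.2 in NS cells. The ratio of CD79A plus CD79B counts to SDC1 plus TNFRSF17 counts was 0.132 and 0.160 in shWNK1 libraries and 0.0928 and 0.098 in NS libraries. The groups did not overlap in this ratio, whose denominator is mostly SDC1. The TPM shares depend on the table's gene lengths, which join the exons of all transcripts of a gene.

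**Figure D3:**
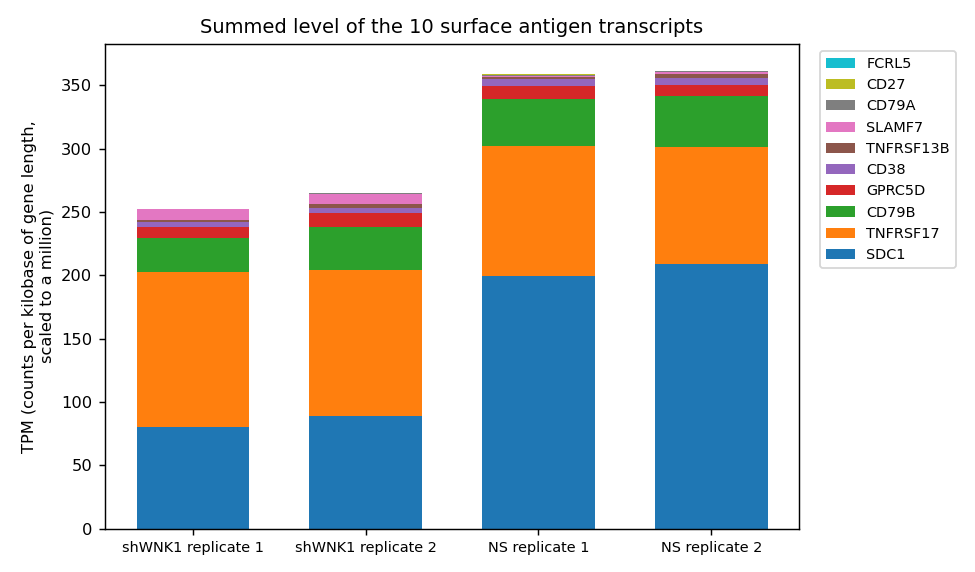
Stacked TPM of the 10 surface antigens in each library, from SDC1 at the bottom to the antigens lowest in NS cells at the top. The bars reach 253 and 265 TPM in shWNK1 libraries and 358.5 and 361 TPM in NS libraries; the SDC1 segment is the shorter one in shWNK1 libraries and the SLAMF7 segment is visible mainly there.

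The stacked plot of TPM shows this shift in make-up. Upstream sequences are shown for SDC1 and CD38, the falling antigens for which RefSeq (GRCh38.p14) windows were at hand; 7 of the 10 antigens matched the table, and TNFRSF17, SLAMF7 and CD79B did not. Both are written 5′ to 3′ on the strand of the gene, from 250 bases before the annotated start, and the CD38 window ends where the gene begins in the count table. Capitals mark matches to the motifs searched on both strands, which were the GC box with the letters GGGCGG, the TATA box with the letters TATAAA, the CCAAT box, the E-box with the letters CACGTG, the AP-1 motif with the letters TGANTCA and the core of a MAF site with the letters TGCTGAC.
SDC1, chr2:20225476-20225725, minus strand: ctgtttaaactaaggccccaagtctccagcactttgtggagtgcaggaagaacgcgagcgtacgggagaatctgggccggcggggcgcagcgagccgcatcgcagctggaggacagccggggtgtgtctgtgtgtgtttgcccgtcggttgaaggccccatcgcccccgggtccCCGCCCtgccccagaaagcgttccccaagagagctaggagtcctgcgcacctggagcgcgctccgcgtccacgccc
CD38, chr4:15778078-15778274, plus strand: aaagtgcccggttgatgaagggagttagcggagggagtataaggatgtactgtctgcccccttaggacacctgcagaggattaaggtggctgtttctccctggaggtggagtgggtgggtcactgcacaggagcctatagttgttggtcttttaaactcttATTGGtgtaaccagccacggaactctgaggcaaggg

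The SDC1 window held 1 GC box, on the other strand, and none of the other motifs, and 66.4% of its bases were G or C. The CD38 window held 1 CCAAT box, also on the other strand, and 52.4% of the bases of its whole window were G or C. The SDC1 and CD38 windows therefore shared none of the motifs searched. CD79B, which also fell, had no window, so this is no result about the falling antigens. Of 35116 windows of the same length in the table, 42.6% held the GC box, 10.7% the TATA box, 32% the CCAAT box, 6.34% the E-box, 6.57% the AP-1 motif and 3.43% the MAF core, so both matches are common ones. A second annotated SDC1 start, whose window also held 1 GC box, lies inside the gene span of the count table. Gene counts do not say which start was used.

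The 6-base word AGTATC had come up in an earlier analysis of the same libraries, in which 3′ UTRs of falling genes held it more often, and it supports nothing here. It was searched in the 3′ UTRs of 9 antigens (GENCODE v29, without GPRC5D), and 2 held it, CD38 and FCRL5. Many genes of the pathway lists, searched the same way, held it too. The share over all genes was not computed, so this count is no result about the antigens. The sites of CD38 and WNK1 are shown because CD38 is the antigen that fell and holds the word and WNK1 is the gene that the hairpin targets; capitals mark the word.
CD38, chr4:15849326-15849331, plus strand: ctacatttAGTATCaagctaga
WNK1, chr12:911204-911209, plus strand: acactttgAGTATCtttttcca

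SDC1 and CD79B fell and had no such word in their searched 3′ UTRs, of which the longest were 1969 and 486 bases. SLAMF7, which rose, had none in 1657 bases. No match in these windows says nothing about other parts of the transcripts.

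**Figure D4:**
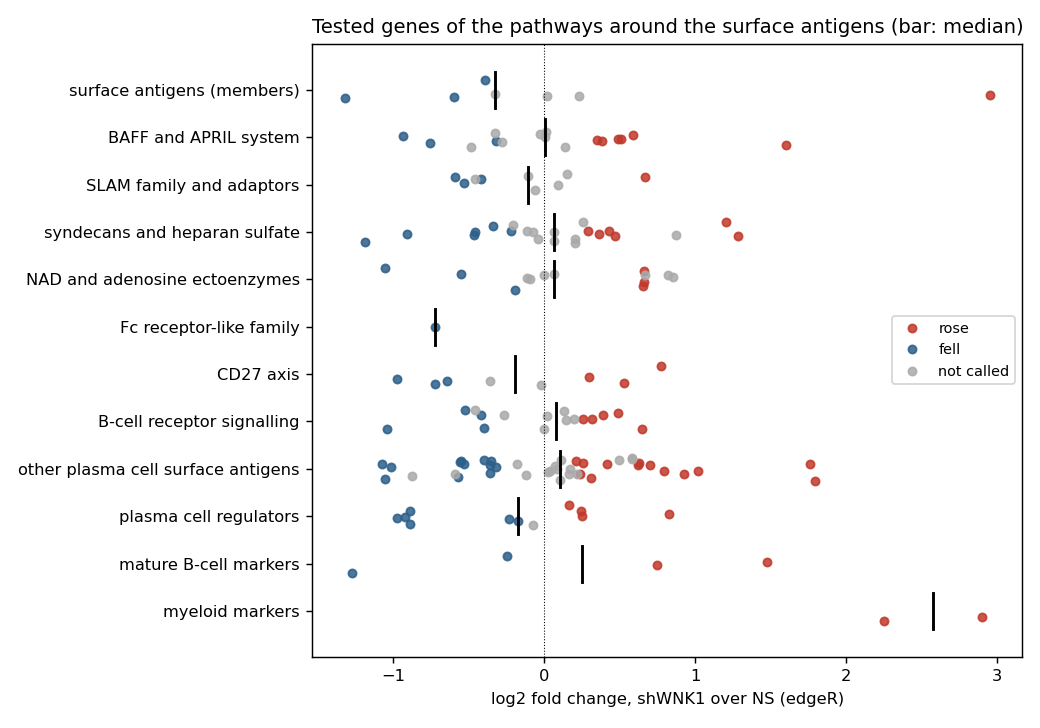
Log2 fold change, shWNK1 over NS, of the tested genes in the pathways around the surface antigens, 1 row per list, with the antigens in the top row. Points are genes (red rose, blue fell, grey not called by edgeR) and black bars are list medians; most lists hold points on both sides of 0, and SLAMF7 lies at 2.96, farther right than any gene of the lists.

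The pathways around the antigens moved in both directions, as the plot of the pathway lists shows. Over these lists 45 of 141 tested genes rose and 42 fell, of 211 listed. Counts per list are read against the same backgrounds of 18.5% rising and 20.2% falling.

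Around BCMA and TACI, 6 of 16 tested genes rose and 3 fell, with a median log2 fold change of 0.01. The ligands APRIL (TNFSF13) and BAFF (TNFSF13B) had at most 10 counts in any library. TNFSF13 shares 55.5% of its exon bases with the readthrough gene TNFSF12-TNFSF13 on the same strand, and fragments over both were counted for neither, so its low count is uncertain. TRAF1, an adaptor of TNF receptors, rose to 32.4 CPM in shWNK1 cells, against 10.6 CPM in NS cells (log2 fold change 1.61, SE 0.132, edgeR adjusted p = 1.27e-11), and TRAF3, which restrains non-canonical NF-κB signalling, rose by 0.51. Of the subunits of γ-secretase, the protease that cuts BCMA from the cell surface, APH1A fell to 124 CPM, against 238 CPM in NS cells (-0.94, edgeR adjusted p = 8.86e-14), and nicastrin (NCSTN) was not called (0.14), although it passed without NS replicate 1 (0.23, edgeR adjusted p = 0.0021) and with upper-quartile scaling (0.0347). The shedding proteases ADAM17 (-0.76) and ADAM10 (-0.32) fell. ADAM10 is the one known to cut TACI.

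No other receptor of the SLAM family was called as a rise. Among them, SLAMF6, SLAMF9 and CD244 had 0 counts in all 4 libraries, SLAMF1, LY9 and CD84 had at most 4, SLAMF8 had 0 and 0 counts in shWNK1 libraries, against 10 and 6 in NS libraries, and CD48 fell to 39.1 CPM in shWNK1 cells, against 56.5 CPM in NS cells (log2 fold change -0.53, SE 0.091, edgeR adjusted p = 1.48e-05). CD48 is also the nearest tested gene below SLAMF7 on chromosome 1, 27226 bases away. F11R, the nearest tested gene above, 240390 bases away, rose (0.73). SH2D1A, the adaptor SAP of SLAM receptors, fell (-0.59), and SH2D1B, the adaptor EAT-2 through which SLAMF7 activates NK cells, averaged 1.46 CPM in shWNK1 cells, against 1.53 CPM in NS cells, and was not called. Of 9 tested genes of this list 1 rose, the phosphatase PTPRC (CD45; 0.67, edgeR adjusted p = 0.00425), and 3 fell. The PTPRC call ended when shWNK1 replicate 2 was left out (edgeR adjusted p = 0.0629, leaving 0 rises in the list) and when NS replicate 2 was (0.108), and the list held 2 rises when NS replicate 1 was.

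The other syndecans moved both ways. SDC2 rose to 63.9 CPM in shWNK1 cells, against 27.7 CPM in NS cells (log2 fold change 1.20, SE 0.101, edgeR adjusted p = 2.85e-11), SDC4 rose by 1.28, and SDC3 fell (-0.91) to 4.96 CPM in shWNK1 cells, against 9.34 CPM in NS cells, a call that ended without NS replicate 2 (-0.57, edgeR adjusted p = 0.0804). SDCBP (syntenin), which binds syndecan tails, rose by 0.47. Among enzymes of heparan sulfate, the sugar chain of SDC1, the sulfatase SULF2 fell to 61.3 CPM, against 140 CPM in NS cells (-1.19, edgeR adjusted p = 4.64e-14), SULF1 fell (-0.46), the sulfotransferase NDST1 fell (-0.47), and XYLT1, which starts the chain, rose (0.43). The chain polymerases EXT1 (0.06) and EXT2 (-0.08) and heparanase (HPSE; 0.21) were not called. The list held 6 rises and 6 falls among 22 tested genes. The nearest tested genes around SDC1 on chromosome 2, LAPTM4A (0.89, 149169 bases away) and PUM2 (0.26, 23258 bases away), both rose. PUM2 was not called without shWNK1 replicate 1.

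For CD38, the related ectoenzyme BST1 had at most 4 counts in any library. The list of NAD and adenosine enzymes held 3 rises and 3 falls among 13 tested genes. ENTPD1 (CD39), which removes phosphates from ATP, rose (0.66), adenosine deaminase ADA rose (0.66), and the deaminase-binding peptidase DPP4 fell (-1.05). NAMPT, the rate-limiting enzyme of NAD salvage, fell slightly (-0.19, edgeR adjusted p = 0.0141), a call lost without shWNK1 replicate 1 (edgeR adjusted p = 0.071), without shWNK1 replicate 2 (0.28) and with upper-quartile scaling (0.0509). Without shWNK1 replicate 2 the list held 1 fall.

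Most relatives of FCRL5 and of GPRC5D were too low to test. Of 7 Fc receptor-like genes only FCRLB, an intracellular member, could be tested, and it fell to 6.75 CPM in shWNK1 cells, against 11.2 CPM in NS cells (log2 fold change -0.72, edgeR adjusted p = 0.00174). The GPRC5D relatives GPRC5A, GPRC5B and GPRC5C had at most 9 counts in any library.

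Among CD27 ligands and related TNF receptors, 3 of 8 tested genes rose and 3 fell. TNFRSF1B rose to 495 CPM in shWNK1 cells, against 343 CPM in NS cells (log2 fold change 0.53, edgeR adjusted p = 5.31e-09), TNFRSF1A rose (0.78), and TNFRSF8 (CD30; -0.98) and SIVA1, a binder of the CD27 tail (-0.72), fell.

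Downstream of the CD79 chains, the complement receptor CR2 had at most 3 counts in any library, and the kinase BTK had at most 2. The list held 5 rises and 4 falls among 16 tested genes, with SYK (0.39) and MALT1 (0.49) rising and LYN (-0.40) and the adaptor PIK3AP1 (BCAP; -1.04) falling. There were 3 rises without shWNK1 replicate 1, 2 without shWNK1 replicate 2 and 2 with DESeq2.

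Of 41 tested further surface antigens of plasma cells, 13 rose and 12 fell, with a median of 0.10. The chemokine receptor CCR2 rose to 40.6 CPM in shWNK1 cells, against 11.7 CPM in NS cells (log2 fold change 1.80, SE 0.137, edgeR adjusted p = 5.93e-12), and IL6ST, the shared chain of the IL-6 receptor, rose by 0.70 while the ligand-binding chain IL6R fell (-0.55), a call that ended without shWNK1 replicate 2 (edgeR adjusted p = 0.1). The hyaluronan receptor CD44 fell to 59.1 CPM, against 119.5 CPM in NS cells (-1.02, edgeR adjusted p = 1.19e-12), and the tetraspanin CD63 fell (-1.06). Without shWNK1 replicate 1 there were 8 rises.

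The plasma cell regulators were split, with 4 rises and 6 falls among 11. The coactivator POU2AF1 rose to 845 CPM in shWNK1 cells, against 476 CPM in NS cells (log2 fold change 0.83, edgeR adjusted p = 1.27e-13), and JCHAIN, the joining chain of polymeric antibodies, rose (0.25, edgeR adjusted p = 0.000993). Leaving out shWNK1 replicate 1 ended the calls of JCHAIN (edgeR adjusted p = 0.128), PRDM1 (0.0575) and IRF4 (0.125) and left 1 rise in the list. IKZF1, a target of lenalidomide, fell (-0.89), and the elongation factor ELL2, which favours secreted antibody, fell (-0.92). Among mature B-cell markers PAX5 fell to 2.99 CPM in shWNK1 cells, against 7.27 CPM in NS cells (-1.28, edgeR adjusted p = 8.59e-05), while CIITA (1.48) and TCL1A (0.75) rose. BACH2 fell by 0.25 (edgeR adjusted p = 0.0487), a call that ended when shWNK1 replicate 1 (edgeR adjusted p = 0.338), shWNK1 replicate 2 (0.114) or NS replicate 1 (0.277) was left out, which left 1 fall in the list each time, and also with DESeq2 (adjusted p = 0.122).

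Several genes named above share exon bases with other genes, which makes their levels uncertain under unstranded counting: SLAMF8 shares 72.7% of them, ENTPD1 41.0%, LYZ 34.7%, CD48 976 of its 3254 bases, GPRC5B 26.7%, CIITA 23.4%, ADAM17 14.4% and APH1A 14.1%.

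Next to the other antigens, TNFRSF17 lies within the span of NPIPB2 (chromosome 16, 11927259 to 11976643), with which it shares 0 exon bases. NPIPB2 is a member of a multigene family with near-identical copies, so its counts are uncertain. NPIPB2 (log2 fold change 0.77) and SNX29 (0.75), 8666 bases above TNFRSF17, both rose, NPIPB2 not without shWNK1 replicate 1 (edgeR adjusted p = 0.0962). The nearest tested genes around CD38 are FAM200B, 72710 bases away, which was not called (-0.42), and TAPT1, 307273 bases away, which rose (0.37). Untested genes, BST1 among them, lie closer to CD38 and were passed over. The TAPT1 call ended with DESeq2 (adjusted p = 0.0648) and when shWNK1 replicate 1 or shWNK1 replicate 2 was left out. Of the other nearest tested genes, IFI16, 1447453 bases above FCRL5 (-0.34), and RPS19, 4354 bases below CD79A (-0.17), fell. ETV3 below FCRL5, ARHGEF1 above CD79A and TAPBPL, which overlaps CD27, were not called. Nor were FAM106C and MPRIP around TNFRSF13B, DDX47 and HEBP1 around GPRC5D, and CSH2 and SCN4A around CD79B. Over the 4 libraries, the genes whose profile came closest to that of SLAMF7 were CXCL8, POU2F3 and SPIB, at Euclidean distances of 0.139, 0.727 and 0.811 between centred log2(CPM + 0.1) values. The chemokine CXCL8 was counted 882 and 945 times in shWNK1 libraries and 101 and 108 times in NS libraries.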

How the data were processed

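Per the file headers, the authors obtained the deposited counts by running featureCounts v2.0.0 on GENCODE v34 annotation: fragments of read pairs, no use of strand, no chimeric pairs, both ends mapped and a mapping quality minimum of 20. Trimmomatic, STAR and hg38 are named in the submitters' processing notes. One gene broken over 3 lines and 45 Y copies of pseudoautosomal genes were left out of 60728. Genes passing filterByExpr (14864) were scaled by TMM and tested two-sided with edgeR 4.0.16 in R 4.3.3 (robust glmQLFit and glmQLFTest, group as the only term, 2 residual degrees of freedom), with Benjamini-Hochberg adjustment over all of them and a threshold of 0.05; the script was tested on simulated data. SE and 95% intervals are those implied by the F statistic. The total counts per library, given with the results, set the precision, and limits at 3 counts cover counting error only.

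All 10 antigens were named, with WNK1, the nearest tested genes, the 3 genes closest in profile to the antigen with the largest called change (means of at least 5 CPM), and up to 2 rising and 2 falling genes per list by smallest p. Other list genes were added after their values were seen. In the title of the second shWNK1 library 2 letters are swapped (shNWK1), and its treatment label was followed. Members and lists were chosen with earlier results of these data known. Alternatives were DESeq2 1.42.0, limma-voom (3.58.1), RLE, upper-quartile and other TMM scaling, other filters, a replicate block, a test against a 1.5-fold change and leaving out each library.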

Additional observations from a re-analysis of the deposited data

How the results depend on the processing

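SDC1 and SLAMF7 kept direction and call in all alternatives run, and leaving out 1 library gave -1.41 to -1.24 and 2.82 to 3.12. Leave-one-out ranges were -0.64 to -0.56 for CD38, -0.59 to -0.23 for CD79B, 0.18 to 0.29 for TNFRSF17, -0.76 to 0.30 for TNFRSF13B and -0.23 to 0.22 for GPRC5D, and the last 2 crossed 0. So did genes that were not called: EXT1 (-0.0823 to 0.23), SH2D1B (-0.22 to 0.0736) and CD70 (-0.18 to 0.16, and 0.0188 with upper-quartile factors). CD79B was not called with DESeq2 (-0.40), and TNFRSF17 was called with upper-quartile factors (0.27), which made 2 rises among the antigens. Against a fold change of 1.5, neither CD38 (-0.60) nor CD79B (-0.39) was called, 1 antigen rose and 1 fell, 303 genes rose and 353 fell in all, and 10 pathway genes rose and 10 fell. With 1 library left out, 1 to 2 antigens rose and 1 to 3 fell, 1632 to 2778 genes rose and 1964 to 3024 fell in all (1663 rises and 1964 falls without shWNK1 replicate 1, 1632 and 2034 without shWNK1 replicate 2), and 32 to 46 pathway genes rose and 33 to 45 fell; a lone library is then assumed to vary like the other group. Same-numbered libraries of the groups share a first letter, A or B, in their deposited column names, and what it marks is not known here. Deviations of same-numbered libraries correlated at -0.00469 and those of crossed libraries at 0.00469. With 2 libraries per group these values mirror each other, and they do not settle whether the libraries were paired. With the replicate block, 1 antigen rose and 3 fell (SDC1 -1.33, SLAMF7 2.96, CD38 -0.60, CD79B -0.40), with 2539 rises and 2804 falls in all, and BACH2 lost its call (edgeR adjusted p = 0.0721). The cause of these differences was not tested. At most 75 counts per library lie behind GPRC5D and TNFRSF13B, whose 95% intervals run from 0.652 to 1.57 and from 0.464 to 1.37 as folds, shWNK1 over NS.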
